A study of Homo sapiens with 4 samples.

Results

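Sense-intronic transcripts are noncoding RNAs that are annotated inside an intron of another gene, on that gene's strand. This report follows 79 of them, and the host loci around them, in LNCaP cells that overexpress CRYM. LNCaP cells are an established line from a lymph node metastasis of human prostate cancer. The product of CRYM, mu-crystallin, is a thyroid hormone-binding protein of the cytosol. Each of 4 libraries came from LNCaP cells at passage 22 in medium with 10% serum, transfected with 2500 ng of plasmid and 12 µL of Lipofectamine 2000, with RNA taken 48 h later. In 2 libraries the plasmid was the empty pReceiver-M72 control, and in 2 it carried the CRYM open reading frame in the same backbone. All cells therefore went through transfection, and no untransfected cells were among the groups. The samples of a group are labelled as biological replicates, but separate cultures are not stated, so the p-values cover the spread between these samples, which may be technical. The question put to the members is which of them, and which hosts, differ under CRYM overexpression.

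The members were chosen by biotype and level. The 4 tables were joined by identical position, which gave 52318 rows, and 649 of these were typed sense-intronic. Of the 649, 213 were listed at 0 in all 4 libraries and 357 were above 0 but below the level asked for. The remaining 79, or 12.2%, reached an FPKM (a fragment density corrected for transcript length and library size) of at least 1 in at least 2 libraries. No sense-intronic row was lost through its quantification status. The level was at least 1 in all 4 libraries for 52 members, in 3 libraries for 17 and in 2 for 10. The member nearest the limit was RP11-815I9.4, with a second-highest value of 1.00, and the row just outside was RP3-426I6.5, with 0.991. Of the 79, 9 passed through the CRYM libraries only and 0 through the empty-vector libraries only. Levels chose the members, so levels are given as a description.

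An intron is normally removed during splicing as a lariat, opened by the debranching enzyme DBR1 and degraded, in part by the nuclear exosome. Some intronic RNAs last longer, because they have a promoter and a poly(A) site of their own or because they are processed into small RNAs such as snoRNAs. A library made from polyadenylated RNA also samples unspliced host RNA, in which a member's span is read along with the rest of the intron. Reads of the host's unspliced RNA and of a member on the same strand cannot be told apart in these files. No source used here says whether reads were counted by strand, and GENCODE 29 places a gene on the opposite strand over 14 of the members, for which the 2 strands cannot be told apart either. In bulk RNA, a change in the number of cells that make a transcript and a change in RNA per cell cannot be told apart.

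CRYM's own row stood at 1.17 and 0.977 FPKM with the empty vector and at 65.3 and 72.5 with the CRYM vector, which matches the labels. Sequencing depth ranged from 0.842 (CRYM library 1) to 1.151 (empty-vector library 2) times that of empty-vector library 1. The cell-type check could use few genes, since most coding rows carry no symbol. Of 11 luminal prostate markers 2 were named, HOXB13 and SPDEF, and both were lower with CRYM: HOXB13 had 128 and 128 FPKM against 110 and 114 (log2 difference -0.19, limma adjusted p = 0.0275) and SPDEF 86.9 and 84.5 against 46.8 and 48.0 (-0.84, limma adjusted p = 0.00517). No basal or fibroblast marker was named, and the named endothelial and neuroendocrine markers, CLDN5 and INSM1, were not above 0.275 FPKM in any library. The named immune marker, HLA-DRA, had 2.40 and 2.29 against 1.95 and 1.56 and did not pass. Whether these markers bear on the members was not tested.

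The annotated 3′ ends of one-exon and spliced members differed in sequence. Of the 79 members, 69 were found by Ensembl identifier in GENCODE 29, 38 with 1 exon and 31 with 2 or more. The hexamer AATAAA, the most common poly(A) signal, lay within the last 50 bases of 25 of the 38 one-exon transcripts and of 2 of the 31 spliced ones. Among all 957 sense-intronic transcripts of GENCODE 29 the share was 35.63%, and among 83129 protein-coding transcripts 35.46%. Of the 5 one-exon members higher in the CRYM libraries 4 hold the hexamer, RP11-111M22.4 being the one without. The last 100 bases, 5′ to 3′, of 3 of these 4 are shown as examples of the hexamer, which capitals mark; the other, INE1, is not shown.
RP3-467L1.6: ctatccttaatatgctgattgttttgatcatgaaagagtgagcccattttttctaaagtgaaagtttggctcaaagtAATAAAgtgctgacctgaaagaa
LL22NC03-N14H11.1: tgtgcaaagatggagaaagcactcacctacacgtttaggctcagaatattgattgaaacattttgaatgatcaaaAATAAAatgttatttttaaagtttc
RP11-388C12.8: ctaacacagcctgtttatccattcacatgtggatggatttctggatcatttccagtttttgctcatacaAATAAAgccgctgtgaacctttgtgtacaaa

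RP3-467L1.6 lies on the plus strand of chromosome 1 (hg19, 7836443 to 7836835), LL22NC03-N14H11.1 on that of chromosome 22 (16154073 to 16154766) and RP11-388C12.8 on that of chromosome 17 (80702944 to 80703585). The spliced members held 2 other features in larger shares. The 9-mer CTCCAGCCT, part of the right arm of Alu elements, was present anywhere in the transcript, on either strand, in 12 of the 31 spliced members and in 5 of the 38 one-exon members, beside 15.99% of all GENCODE 29 sense-intronic transcripts. A run of at least 8 A within the last 20 bases was present in 7 of the 31 and 2 of the 38, beside 4.284%. A match describes the annotated sequence only, and the shares are not tests. The difference between CRYM and empty vector, described further on, was of like size with and without the hexamer. It was not tested between members that hold a feature and members that do not. The median log2 difference was 0.17 for the 27 members with the hexamer, of which 5 were higher, and 0.16 for the 42 without it, of which 7 were higher. It was 0.11 for the 17 members with the 9-mer and 0.20 for the 52 without it.

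**Figure D1:**
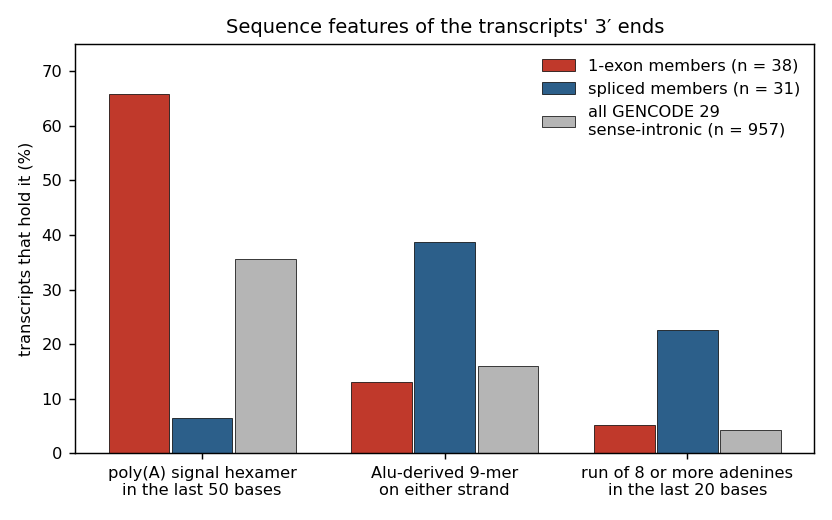
Share of annotated transcripts (y axis, percent) that hold each of 3 sequence features (x axis), for 38 one-exon members, 31 spliced members and all 957 sense-intronic transcripts of GENCODE 29. The poly(A) signal hexamer was in 65.8% of the one-exon members and 6.45% of the spliced ones, and the Alu-derived 9-mer in 13.2% and 38.7%.

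Placement in the host was read from GENCODE 29 by identifier. Of the 69 members found, 63 were still typed sense-intronic, and the others had been retyped. RP11-111M22.4 and FAM215B were lincRNAs there, SCARNA10 and SNORA59B snoRNAs, BRWD1-IT2 an antisense RNA of BRWD1 and RP11-473I1.10 a 3′ overlapping RNA of C16orf72. A protein-coding gene on the same strand surrounded 65 of the 69, and 63 of those 65 had no base under an exon of that gene. An intron of a coding transcript could be assigned for 61, and it was intron 1 for 15 and the last intron for 13. Those introns were 495 to 145496 bases wide with a median of 9145. A member began within 500 bases after the upstream exon in 14 cases and ended within 500 bases before the next exon in 8.

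Members were low beside those hosts that could be tested. Their mean FPKM over the 4 libraries ranged from 0.754 to 34.8 with a median of 1.73, beside 11.5 for all 10091 tested rows, and 62 were under 3. A host was the widest joined row that contains the member, whatever its strand. For RP11-295D4.1 that row was GLIS2, which GENCODE 29 places on the opposite strand. It was testable for 49 members, a narrower containing row was used for 2 because the widest was listed at 0, and the host was listed at 0 or was below the level for 12. For the other 16 members no containing row had the same ends in all 4 tables. The 51 members with a tested host lay in 50 rows, whose mean FPKM ran from 1.30 to 1070, with a median of 30.3. The host exceeded the member by a median of 19.9-fold in mean FPKM, by at least 10-fold in 33 pairs and by at least 100-fold in 4. Across the 51 pairs Spearman's rho between the member's and the host's mean FPKM was 0.10, over rows that share the same libraries.

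**Figure D2:**
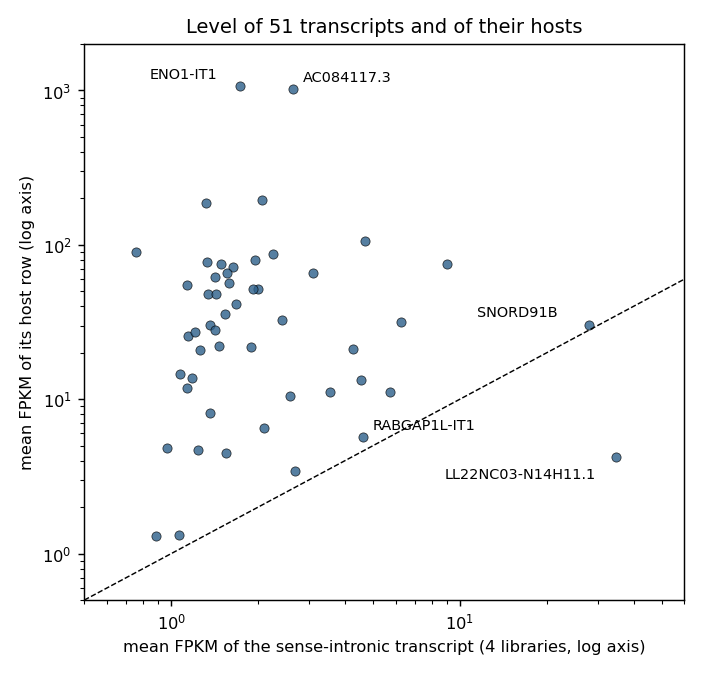
Mean FPKM over the 4 libraries of 51 sense-intronic transcripts (x axis, log scale) against that of their host rows (y axis, log scale), 1 point per transcript. The dashed line marks equal levels, and LL22NC03-N14H11.1 is the one point below it, while ENO1-IT1 and AC084117.3 lie under hosts above 1000 FPKM.

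LL22NC03-N14H11.1 was the highest member and, among the 51 with a tested host, the only one above its host in mean FPKM. Its FPKM was 30.7 and 28.7 with the empty vector and 39.8 and 40.1 with the CRYM vector. Its host row on chromosome 22 has the width of DUXAP8, a double homeobox pseudogene, and had 3.50, 3.70, 4.85 and 4.76 in the same order. SNORD91B, a box C/D snoRNA gene of 95 bp, was listed at 59.1 and 26.2 with the empty vector and at 0 and 26.8 with the CRYM vector. Its deposited intervals imply at most 1 fragment per library, too few to show a difference. CTB-25B13.13 on chromosome 19 had 8.51, 7.70, 9.81 and 10.1 in the 4 libraries, empty vector before CRYM, with a log2 difference of 0.27 that did not pass the test.

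Changes were tested with limma on log2(FPKM + 1) across all 10091 rows that reached the same level, with Benjamini-Hochberg adjustment over all of them. All log2 differences are CRYM minus empty vector on that scale, which understates the change of low rows. Among the members 13 were higher and 3 were lower at an adjusted p under 0.05, and 63 did not pass. Of all tested rows 15.7% were higher, 17.7% lower and 33.3% either, so the members' 16.5% higher is near the background, and their 3.80% lower is below the background share. Among the 52 members at 1 FPKM or more in all 4 libraries 10 were higher and 3 lower. A separate fit of the rows at that level alone called 18.0% of all its rows higher and 21.0% lower, and 9.62% of its members lower. Of the 9 members that passed through the CRYM libraries only, 2 were among the 13. The members' median log2 difference was 0.17, beside 0.01 for all tested rows, and 58 of 79 differences were above 0, or 73.4%, beside 51.5% of all rows. The CRYM libraries lay above both empty-vector libraries for 41 members and below both for 10, where 37.0% and 35.3% of all rows did so. The groups were thus apart for 64.6% of the members and 72.2% of all rows. The 9 members that passed through the CRYM libraries only are above 0 by the way they were chosen, so these shares support nothing by themselves. Without those 9, 49 of 70 members were above 0, with a median of 0.13. CRYM lay above both for 32 of them and below both for 10, or 45.7% and 14.3%. The shares of all rows, 37.0% and 35.3%, were not reduced in the same way. At 1 FPKM or more in all 4 libraries, 39 of 52 members were above 0, with a median of 0.16, beside 49.8% of the 8746 such rows. The summed FPKM of the members without SNORD91B was 195 and 203 with the empty vector and 230 and 236 with the CRYM vector.

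With any 1 library left out, or with the replicate number as a block, 0 of all 10091 rows passed in limma, members included, so a lost call there says nothing of a single member. The differences of the 16 called members were 0.808 to 1.19 times as large with a library left out. Since the groups did not overlap at any of the 16, no sign could change there. With all libraries, 33 members and 4654 of the 10091 rows had an unadjusted p under 0.05 in limma. Scaling every library to the same total FPKM left 0 members higher and 22 lower, or 27.8%, where 297 of all 10091 rows were higher and 6257 lower. That scaling moved the median of all rows from 0.01 to -0.52 and the members' median from 0.17 to -0.20. The scale used understates the change of low rows, and the members are low beside all rows. A common scaling thus moves the members less, so their higher median there cannot show that their tilt outlasts scaling. After quantile normalization the members' median was smaller than 0.17, as given further on.

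On the log2(FPKM + 1) scale the largest of the called rises were at CTC-425O23.2, HM13-IT1, RP11-388C12.8 and RP3-467L1.6. CTC-425O23.2, in intron 1 of AKT2, a kinase of insulin and growth-factor signalling, was at 1.00 and 1.19 FPKM with the empty vector and at 2.2 and 2.53 with the CRYM vector. Both CRYM libraries were above both empty-vector libraries, the mean was 2.16-fold higher, and the log2 difference was 0.68 (SE 0.10, limma adjusted p = 0.0259). HM13-IT1, in intron 10 of HM13, which encodes signal peptide peptidase, had 1.64 and 1.43 against 2.82 and 3.11, a 1.93-fold higher mean (log2 difference 0.64, SE 0.08, limma adjusted p = 0.0220). RP3-467L1.6, in intron 2 of VAMP3, a vesicle SNARE, had 1.84 and 1.59 against 3.07 and 3.16, a 1.82-fold higher mean (log2 difference 0.60, SE 0.07, limma adjusted p = 0.0206). The groups did not overlap at any of these members.

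RP11-388C12.8, in intron 4 of FN3K, the fructosamine 3-kinase that removes sugar from glycated proteins, had 2.32 and 2.80 against 4.14 and 4.91, with a log2 difference of 0.63 (SE 0.12, limma adjusted p = 0.0419). RABGAP1L-IT1 lies in intron 19 of RABGAP1L, a gene of Rab GTPase regulation, and that intron of 145496 bases is the widest among the members. It had 3.35 and 3.63 against 5.43 and 6.09 (log2 difference 0.59, SE 0.08). These are among the better measured members: the deposited intervals imply 111 to 230 fragments per library for RP11-388C12.8 and 116 to 213 for RABGAP1L-IT1, where the median member had 40 to 53. RP11-111M22.4, inside GVQW3, had 1.74 and 2.19 against 3.4 and 3.39, and CTC-548K16.6 had 0.445 and 0.511 against 1.01 and 1.05, also a 2.16-fold higher mean. CTC-548K16.6 is 1 of the 2 called members that reached 1 FPKM in the CRYM libraries only.

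The other members called higher differed by 0.31 to 0.46. AD000684.2, in intron 5 of LSR, which encodes a lipoprotein receptor at tricellular junctions, had 0.717 and 0.916 against 1.54 and 1.45. CTD-2132N18.4 had 1.39 and 1.46 against 2.13 and 2.36, LL22NC03-N14H11.1 the values given above, and FAM215B 1.61 and 1.79 against 2.47 and 2.55. INE1, in intron 14 of UBA1, which encodes the main ubiquitin-activating enzyme, had 1.56 and 1.80 against 2.63 and 2.45. RP11-359K18.4, in intron 9 of UAP1, had 4.24 and 3.92 against 5.47 and 5.16, the smallest of the 13 differences (0.31, SE 0.06, limma adjusted p = 0.0455). FAM215B and DUXAP8 have near-identical copies elsewhere in the genome, so reads of FAM215B and LL22NC03-N14H11.1 may be shared with those copies.

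The 3 lower members were on chromosome 16. RP11-473I1.10 had 7.44 and 7.85 against 5.93 and 6.28 (log2 difference -0.28, SE 0.05, limma adjusted p = 0.0419). Its neighbour RP11-473I1.9 had 8.42 and 9.11 against 7.05 and 7.18 (-0.27, SE 0.05, limma adjusted p = 0.0478). They lie within 1 locus, RP11-473I1.9 at 9198705 to 9200618 and RP11-473I1.10 at 9201098 to 9207038, and are not independent observations. In GENCODE 29 all exon bases of RP11-473I1.10 lie under exons of C16orf72, so its reads and exon reads of that gene cannot be told apart. RP11-96D1.6, in intron 1 of ESRP2, an epithelial splicing regulator, had 1.92 and 1.87 against 1.40 and 1.38 (-0.28, SE 0.06, limma adjusted p = 0.0494).

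**Figure D3:**
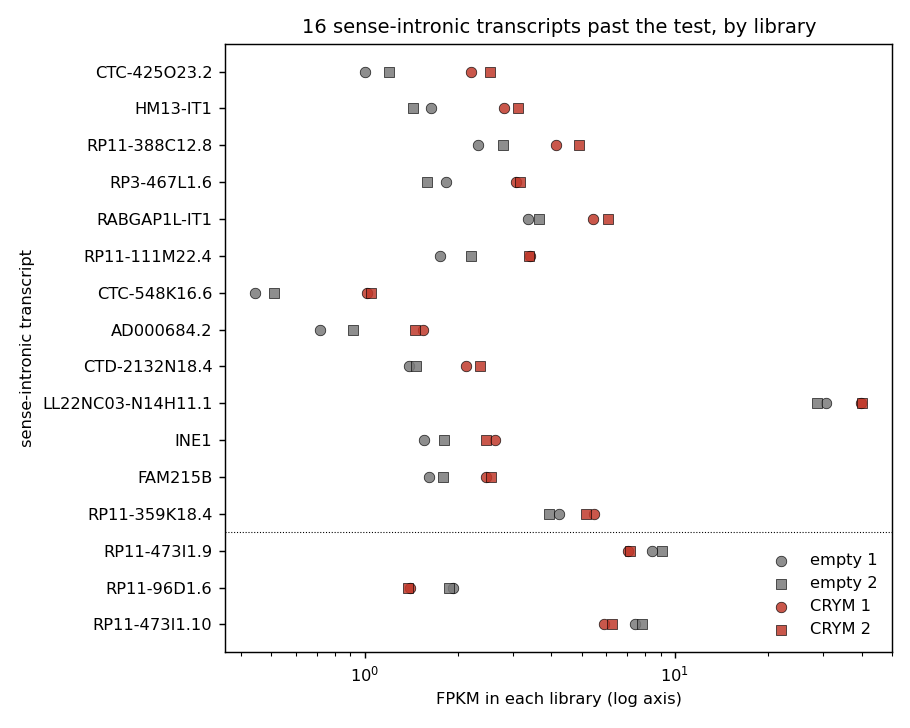
FPKM (x axis, log scale) of the 16 sense-intronic transcripts past the test (y axis) in each of the 4 libraries, grey for empty vector and red for CRYM, with circles for library 1 and squares for library 2. The 13 above the dotted line were higher in CRYM and the 3 below it lower, with no overlap between groups, and LL22NC03-N14H11.1 stands apart at 28.7 to 40.1.

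The hosts moved in both directions. Of the 50 tested host rows 7 were higher, 9 lower and 34 did not pass, which is 32.0% called beside 33.3% of all rows, and their median log2 difference was -0.04. The lower ones included the rows of 2 glycolytic enzymes. LDHA, lactate dehydrogenase A, had 1299 and 1287 against 695 and 779 (log2 difference -0.81, SE 0.07, limma adjusted p = 0.0126), and ENO1, enolase 1, had 1324 and 1316 against 792 and 848 (-0.69, SE 0.04, limma adjusted p = 0.00885). UAP1, which makes UDP-N-acetylglucosamine, had 132 and 128 against 83.0 and 83.4 (-0.64, SE 0.03, limma adjusted p = 0.00572). NCAPD2, a condensin subunit, had 35.3 and 33.6 against 25.9 and 25.8 (-0.40, SE 0.04, limma adjusted p = 0.0137). The higher ones included FN3K, with a mean of 9.67 against 12.6, TTC3, with a log2 difference of 0.28, and KEAP1, the adaptor that targets NRF2 for degradation, with 0.15.

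Member and host changes were then set side by side. Of the 9 higher members that have a tested host, 4 had a higher host (FN3K, GVQW3 and DUXAP8 among them), 4 a host that did not pass, and 1 a lower host, UAP1. The 1 lower member with a tested host, RP11-96D1.6, had a host row that did not pass (74.8, 88.4, 72.6 and 49.9). Where the host was lower, 7 of 10 members had a difference above 0, where it was higher, 6 of 7, and where it did not pass, 25 of 34. Spearman's rho between the 2 differences was 0.41 over 51 pairs, and Pearson's r was 0.28 without SNORD91B. Both come from the same 4 libraries, and a member's reads can enter its host's value, so they are descriptions only.

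**Figure D4:**
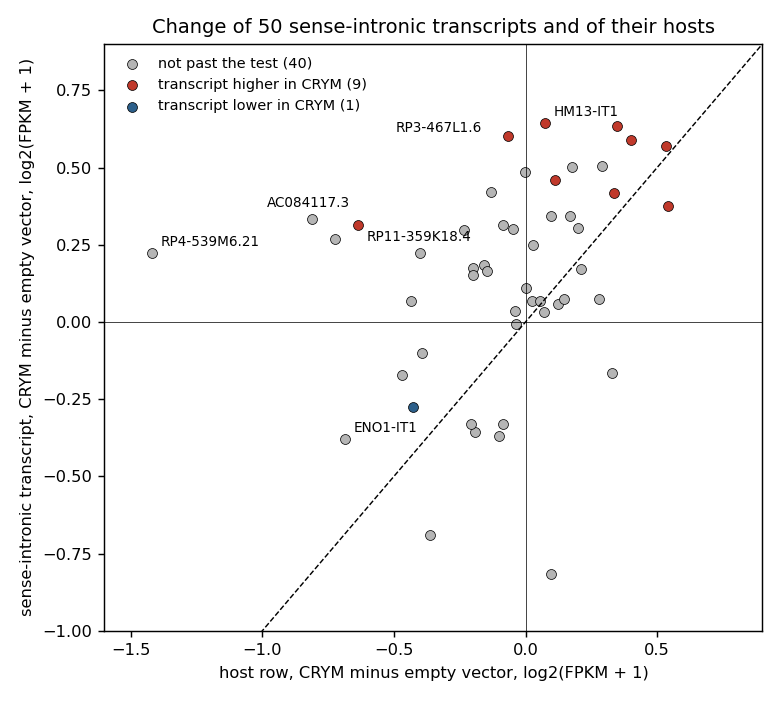
Log2 difference, CRYM minus empty vector on log2(FPKM + 1), of the host row (x axis) against that of the sense-intronic transcript (y axis) for 50 pairs, without SNORD91B. The dashed line marks equal change, red points are the 9 transcripts higher in CRYM and the blue point the 1 lower, and AC084117.3, RP11-359K18.4 and RP4-539M6.21 lie above 0 while their hosts lie below -0.6.

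No member was shown to change differently from its host. The difference of the changes was tested with limma on log2(member + 1) minus log2(host + 1) over all 917 tested rows that lie inside a wider tested row. Of these 3.93% passed, 2.18% above the host and 1.74% below it, and of the 51 members 0 passed above and 0 below. At an unadjusted p under 0.05 there were 6, all above, which is 11.8% beside 15.2% of all such pairs. The smallest adjusted p of a member was 0.0950. The median of member minus host was 0.21, beside 0.09 for all pairs, and 37 of 51 were above 0, or 72.5% beside 58.5%. With pseudocount 5 that median was 0.07, so its size rests on the scale.

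The 6 pairs were chosen for their small p and are described by value. RP11-359K18.4 and UAP1 went opposite ways: the member's log2 difference was 0.31 and the host's -0.64, so that member minus host was 0.95 (SE 0.12, limma adjusted p = 0.0950). The member ends 4037 bases before the next exon, in an intron of 5009 bases, and is on the plus strand of chromosome 1 (162562893 to 162563544). AC084117.3 lies in intron 7 of LDHA on chromosome 11 (18427156 to 18428278), starting 36 bases after an exon. It had 1.85 and 2.64 with the empty vector and 3.0 and 3.11 with the CRYM vector, while LDHA fell, and member minus host was 1.14 (SE 0.20, limma adjusted p = 0.150). The deposited interval of AC084117.3 was 0.452 to 3.25 in empty-vector library 1 and 1.39 to 4.84 in CRYM library 2, so the member's own values are known within wide limits.

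RP4-539M6.21 had 1.09, 1.38, 1.46 and 1.75 in the 4 libraries, empty vector before CRYM, inside a row on chromosome 22 (30792846 to 30825045) with 42.5, 40.1, 12.1 and 18.0. Member minus host was 1.64 (SE 0.22). That row is not the widest around it and does not have the width of RNF215, the same-strand gene there, and SEC14L2 overlaps on the opposite strand, so which gene the row measures is not known. VAMP3 had 33.3, 33.6, 31.2 and 32.6, and HM13 86.5, 83.0, 87.9 and 90.4, and neither host passed. Member minus host was 0.67 (SE 0.13) for RP3-467L1.6 and 0.57 (SE 0.12) for HM13-IT1. SCARNA10, a small Cajal body RNA that lies in an intron of 495 bases of NCAPD2, had 1.22, 1.14, 1.73 and 1.37. For SCARNA10 member minus host was 0.62 (SE 0.14). A processed RNA of its kind lacks a poly(A) tail, and the deposited intervals imply 6 or 7 fragments per library.

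**Figure D5:**
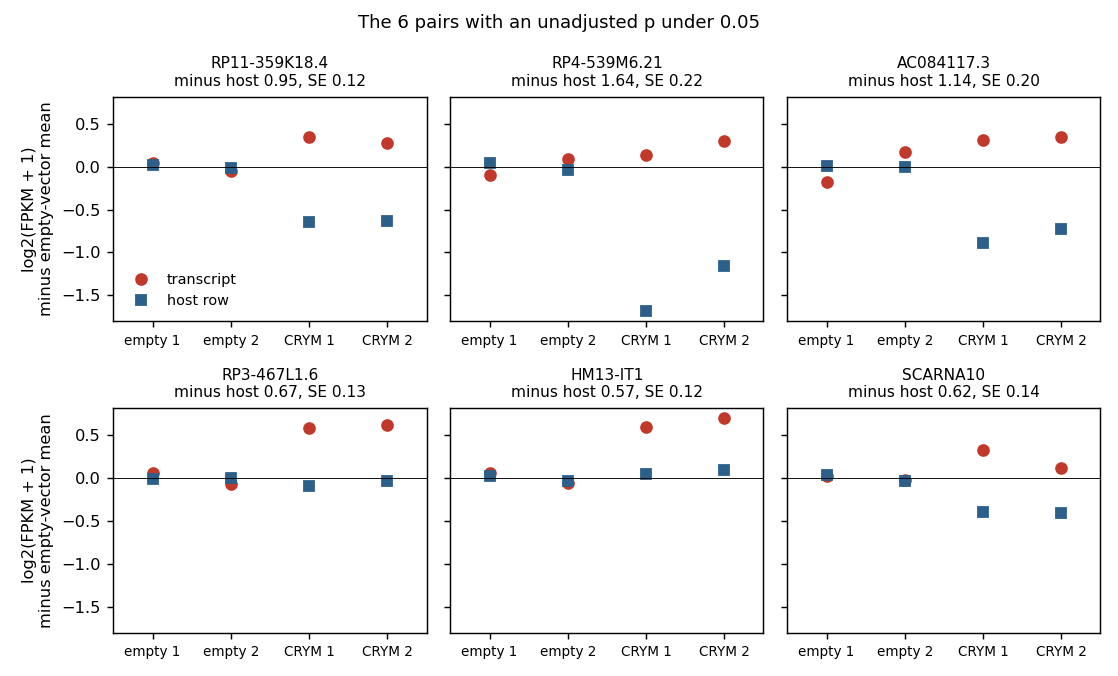
Log2(FPKM + 1) of each library minus the mean of the 2 empty-vector libraries (y axis) in the 4 libraries (x axis), with red circles for the sense-intronic transcript and blue squares for its host row, for the 6 pairs with an unadjusted p under 0.05. The host squares fall below 0 in both CRYM libraries for RP11-359K18.4, RP4-539M6.21, AC084117.3 and SCARNA10 and stay near 0 for RP3-467L1.6 and HM13-IT1.

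The 8 members named after their hosts were not uniform. RABGAP1L-IT1 and HM13-IT1 were higher, as given above, and the other 6 did not pass. ENO1-IT1 followed its host in sign, with 2.13 and 2.04 against 1.23 and 1.52 (log2 difference -0.38, SE 0.09, limma adjusted p = 0.0657). Its change minus that of ENO1 was 0.31 on the log2(FPKM + 1) scale and 0.11 with pseudocount 0.1, and neither difference passed. ERI3-IT1 had 0.691, 0.960, 1.66 and 1.23 inside ERI3, and ACAP2-IT1 1.11, 0.726, 1.24 and 1.46 inside ACAP2, and neither host passed. FMR1-IT1 varied within groups, with 3.4 and 6.79 against 7.72 and 5.06, where FMR1, the fragile X gene, stayed between 10.8 and 11.7. BRWD1-IT2 had 4.81 to 5.53. DPYD-IT1, the widest member at 25988 bp, had 3.21, 2.88, 3.49 and 3.32, while the row of DPYD, which encodes the enzyme that degrades pyrimidines, had 0.0893, 0.112, 0.0343 and 0.0194.

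A pair of hosts held 3 members each, and none of these 6 members passed. KLC1, a kinesin light chain gene, holds RP11-73M18.6 and, in the same intron 15, RP11-73M18.7 and RP11-73M18.8. Their log2 differences were 0.31, 0.34 and 0.16, with limma adjusted p of 0.0521, 0.0830 and 0.0693, and all 3 had both CRYM libraries above both empty-vector libraries, though their differences were below 0 at the same total FPKM. RP11-73M18.7, the highest of them, had 6.56 and 5.79 against 7.62 and 8.56. CCDC92 holds RP11-214K3.18, RP11-214K3.19 and RP11-214K3.22 in intron 1. The first of these had 1.08 and 1.68 against 2.82 and 2.46, the next 1.58 and 1.32 against 2.54 and 2.23, and RP11-214K3.22 had 1.29 and 2.09 against 0.968 and 1.68, which overlap. The joined row with the widest span over each set was listed at 0 in all 4 libraries, so no host change can be given.

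For the 16 members without a joined host, the widest containing row was read in each library's own table, with ends that differ between libraries. The rows around CTC-425O23.2, inside AKT2, had 66.8 and 59.6 with the empty vector and 43.0 and 44.6 with the CRYM vector, opposite in direction to the member, and member minus host was 1.20 (SE 0.18, limma adjusted p = 0.128). The rows around INE1 had 94.6, 87.2, 95.1 and 97.1, and those around AD000684.2 44.9, 44.0, 38.6 and 43.8. The rows around RP11-473I1.9 and RP11-473I1.10 had 15.2, 16.8, 16.5 and 15.7, so the 2 lower members lay in host rows whose groups overlapped. Member minus host was -0.28 for RP11-473I1.9 and -0.29 for RP11-473I1.10 (limma adjusted p = 0.511 for each), so neither was shown to differ from its host. Hosts were read in this way for 65 members, those with a joined host included, and for some the row differed from the joined one. Of these 65 pairs 0 passed in limma, where 45 of all nested pairs in that fit did. At an unadjusted p under 0.05 in limma there were 8. The share of all pairs at that level is not given for this fit, so the 8 are a description only. RP11-295D4.1 was among the 8 with a changed host. In the empty-vector libraries its joined host had 1.19 and 1.26, and the row read here 67.9 and 66.2.

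Other noncoding rows give the setting. Of 250 lincRNA rows at the same level 22.4% were higher and 6.00% lower, with a median log2 difference of 0.17, and of 291 antisense rows 16.2% were higher and 10.7% lower, with a median of 0.10. The sense-intronic median of 0.17 is thus close to that of the lincRNAs. Against their hosts, 2 of 119 nested antisense rows passed above and 0 below, and 0 of 26 nested lincRNA rows passed above and 1 below. The median of row minus host was 0.08 for those antisense rows and 0.07 for those lincRNA rows. It was 0.06 for 117 snoRNA rows, 0.16 for 83 misc_RNA rows, 0.20 for 72 miRNA rows and 0.31 for 3 sense-overlapping rows. The members' 0.21 is thus close to that of the miRNA rows. Of all tested misc_RNA rows 3.47% were lower, and of miRNA rows 3.95%. Of 31 genes of intron RNA turnover (lariat debranching, the nuclear exosome and its adaptors), 1 carried a symbol at a tested row: EXOSC5, a core exosome subunit, with 14.6 and 19.6 against 12.5 and 18.1, and it did not pass. DBR1 and the other genes of that list were not among the named rows and were not analysed here.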

How the data were processed

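Per the labels' protocols, stranded mRNA libraries were read as single 50 bp reads. The authors deposited 1 table per library with an FPKM, an interval and a status per row, per the file headers. TopHat2 2.1.1, Bowtie2 2.2.9, Cufflinks 2.2.1, Cuffdiff, hg19 and GRCh37 are named without roles, per the submitters' processing notes. Absolute depth is unknown, and relative depth is the most common ratio between FPKM values of equal-width rows (60 to 62 bp). FPKM is not a count, so limma 3.58.1 (R 4.3.3) was fitted to log2(FPKM + 1), with a trend for rows and without for pairs, two-sided. Implied fragments take the deposited interval as counting error of 2 SD either way, and 14 members had under 10 in a library. Positions are hg19, counted from 1. Some host genes and sequences are not reported here. Introns, strand, host names and sequences came from GENCODE 29 by Ensembl identifier. A host name was called matching when its width was within 2% of the row, which held for 36 members, failed for 18 (HM13, KLC1, DPYD and ESRP2 among them) and could not be compared for 25. Same-numbered libraries did not deviate together (correlation 0.04), so no pairing was used.

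The members and gene lists were chosen with earlier results of these data known. Named are members past the test (12 per direction by size), calls of the pair test, the 6 highest members, those with -IT names, those whose host holds 3 or more, and each one's host. RP11-359K18.4 as the 13th, the 6 pairs of smallest p, the hosts listed beside them, the retyped members and CTC-429P9.3 were picked after their values were seen. Python 3.11.15, numpy 2.4.6, pandas 2.3.3, scipy 1.17.1 and matplotlib 3.10.9 were used. The fits were also run on simulated data with independent noise per row and library. That run cannot show how technical replicates or shared reads bear on the calls.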

Additional observations from a re-analysis of the deposited data

How the results depend on the processing

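With the replicate block, and with any 1 library left out, members higher and lower and hosts higher and lower were all 0 (range 0 to 0) in limma; the smallest adjusted p over all rows was 0.0569 with the block and 0.0550 to 0.0712 otherwise. Members higher numbered 8 with a mean FPKM of at least 1, 1 with no filter, 5 after quantile normalization and 0 at the same total. All rows higher went from 15.7% to 13.2% with a mean FPKM of at least 1 and 2.98% with no filter. That share was 12.9% after quantile normalization and 2.94% at the same total. Members lower numbered 0 with no filter, 22 at the same total, 1 at the same median, 6 after quantile normalization, 5 when all 4 libraries had to reach 1 FPKM and 1 among members still sense-intronic in GENCODE 29. All rows lower went from 17.7% to 4.09% with no filter and to 6257 of 10091 rows at the same total. That share was 15.9% at the same median and 14.6% after quantile normalization. It was 21.0% when all 4 libraries had to reach 1 FPKM. Hosts higher numbered 2 with no filter and 0 at the same total, and hosts lower 37 at the same total. The median member change was 0.26 with pseudocount 0.1, 0.0639 with 5, 0.0276 after quantile normalization and -0.20 at the same total. Member minus host had a median of 0.25 with pseudocount 0.1, 0.0715 with 5, 0.0374 after quantile normalization, 0.40 at the same total, 0.29 at 1 FPKM in all 4 libraries, 0.12 over the 4 pairs with a named host, and 0.18 to 0.22 with 1 library left out. Members that passed above their host in change were 0 in every fit but those with the narrowest and the widest named containing row, with 1 each. That member is CTC-429P9.3, whose change lay 2.43 above that of the lincRNA CTC-429P9.2. This lincRNA was listed at 4.29 and 3.97 in the empty-vector libraries and at 0 in both CRYM libraries. At the same total FPKM, the differences of BRWD1-IT2 (-0.45), CTB-25B13.13 (-0.28), DPYD-IT1 (-0.34), RP11-73M18.8 (-0.35), FAM215B (-0.0312), INE1 (-0.00395), LL22NC03-N14H11.1 (-0.17) and RP11-359K18.4 (-0.18) turned below 0, as did those of ACAP2-IT1 (-0.0141), FMR1-IT1 (-0.20), RP11-73M18.6 (-0.0706) and RP11-73M18.7 (-0.19), which passed in neither fit. Of the other values of named members, 616 kept their side of the threshold, 17 of them with another sign; 13 came past it and 122 left it, 80 of these with a library left out or the block, where no row passed. FMR1-IT1 was below 0 (-0.0993) without empty-vector library 1, and RP11-214K3.22 just above 0, from -0.21, without CRYM library 1 (0.0101) or empty-vector library 2 (0.00385). Settings that read the host in each library's own table, and subsets by implied fragments and by GENCODE type, were chosen after seeing the data. The cause of these shifts was not tested. Of the 79 members 14 had under 10 implied fragments in a library and 17 at least 100 in every library.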
